A study of Mus musculus with 4 samples.

Results

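The genes described here encode the transport machinery and the transition zone of the primary cilium, together with a few proteins of its membrane and base. Members were matched by gene symbol, under a rule chosen with earlier results of these data known. The rule took symbols that begin with *Ift*, *Bbs* or *Nphp* and a digit, symbols that begin with *Dync2*, the *Tctn* genes numbered 1 to 3, *B9d1* and *B9d2*, and *Kif3a*, *Kif3b*, *Kifap3*, *Cep290*, *Arl13b*, *Ofd1*, *Rpgrip1l*, *Wdr35*, *Ttc21b*, *Evc* and *Evc2*. It found 43 members among the 13577 genes of the table, and all 43 passed the filter for low values, a mean above 1 CPM (the reads of a gene scaled to the size of its library). *Mks1*, which the rule also names, was not analysed here.

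Bulk RNA-Seq had been performed on nasal process (NP) tissues of mouse embryos at E11.5, and 2 libraries titled control and 2 titled ca-*Acvr1* mutant were compared. According to the methods of the study, mutants carry 1 copy of the A11 line of a transgene for a constitutively active form of the BMP receptor ACVR1, which a CAG promoter drives once Cre has acted. Cre comes from *P0-Cre*, which is active in neural crest cells, and controls carry *P0-Cre* without the transgene. NP tissue also holds cells outside the neural crest lineage, such as epithelium. The genotype entries of the samples contradict their titles, since ca-*Acvr1(A11)*;*P0-Cre* is entered for both control libraries and *P0-Cre* for both mutant libraries. The titles were followed for the groups, so that the directions reported hold only if the titles are right and reverse otherwise. *Acvr1* itself was at 21.5 and 23.1 CPM in the 2 controls, against 24.1 and 12.6 CPM in the 2 mutants. Its groups overlapped, and the difference did not pass the test and does not settle the labels (log2 fold change −0.33 on the log2(CPM + 1) scale, SE 0.28, adjusted p = 0.786 by limma).

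The primary cilium is a single antenna-like projection of the plasma membrane, built around a microtubule core that grows from a centriole. Intraflagellar transport (IFT) trains carry cargo along it, outward with kinesin-2 and back with cytoplasmic dynein 2, while the transition zone at its base controls which proteins enter and leave. In vertebrates the cilium is required for normal Hedgehog signaling, and loss of cilia from cranial neural crest cells in mice is known to widen the midface.

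Depth was modest. The control libraries held 1956831 and 2252586 reads and the mutant libraries 2408827 and 2137027 reads, and 1 read amounted to 0.415 CPM in the deepest and 0.511 CPM in the shallowest of them. Libraries were made with a kit that reads the 3′ ends of transcripts, so that the read number does not grow with transcript length. The members spanned a wide range, from a mean of 1.82 CPM for *Tctn1* to a mean of 270 CPM for *Ift74*. The median of the members' mean levels was 23.2 CPM, beside 22.7 CPM over all 12462 genes tested.

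Position and promoter sequence, which the rule did not use, were also described for the members. All 43 were found in GENCODE's annotation of GRCm38 on the chromosome that the table gives. They lie on 18 chromosomes, with 7 members on chromosome 5. *Evc* and *Evc2* lie there head to head, with start sites 1605 bases apart. The last exons, where 3′ reads fall, overlapped no other gene on the same strand. Last exons of members such as *Cep290*, *Ift57* and *Tctn1* overlapped a gene on the opposite strand, and whether counting used the strand is not given in the sources used here.

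RFX transcription factors are known to control many cilium genes through the X-box, a pair of inverted arms. Promoter windows of 300 bases, reaching from 250 before to 50 after the start site, were taken from RefSeq on GRCm38.p6 and matched 37 of the 43 members. GTTNCC followed by GGNAAC after 0 to 3 bases was searched on both strands. It was found in 4 of the 37 members (10.8%), beside 114 of the 10742 genes of the table that had a window (1.06%) and 0.936% of all 27025 genes with one. A single arm, GTTGCC or GGCAAC, which every match below also holds, was found in 19 of the 37 members (51.4%), 14.96% of the genes of the table and 14.1% of all genes. By role, genes with an arm in a window numbered 4 of 9 for IFT-B, 2 of 4 for IFT-A, 2 of 4 for motors, 3 of 8 for BBS genes, 6 of 8 for the transition zone and 2 of 4 for the last group. These letters are a description of the windows and do not show that a factor binds there.

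**Figure D1:**
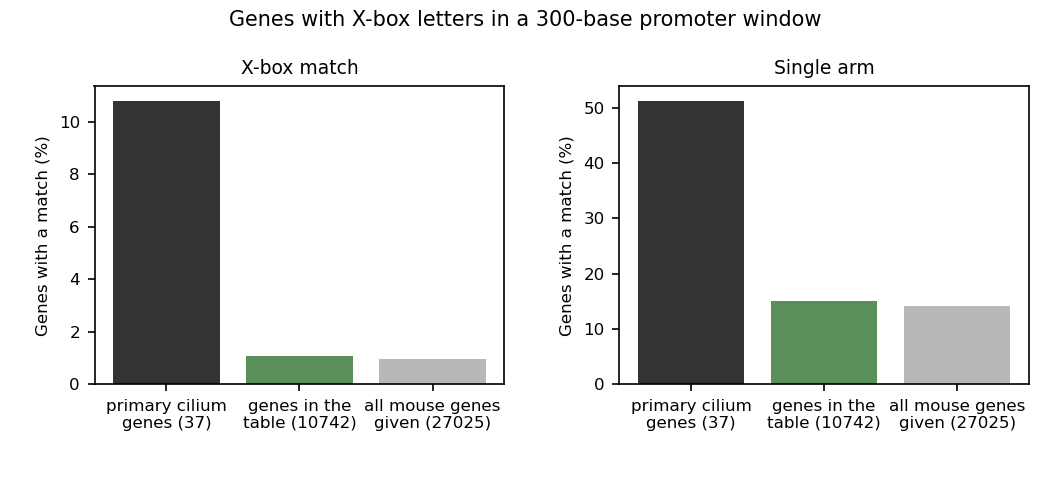
Share of genes whose 300-base promoter window holds an X-box match (left) or a single arm (right), in percent, with the number of genes with a window in parentheses. Matches were found in 10.8% of the primary cilium genes and 1.06% of the genes of the table, and single arms in 51.4% and 14.96%.

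The 4 members with an X-box match are shown with up to 15 bases on each side, 5′ to 3′ on the strand of the gene, with the match in capitals. Coordinates are those of the stretch shown. Matches began 121 bases before the start site in *Bbs7* (chr3:36613482-36613525, minus strand), 60 before it in *Ift57* (chr16:49699219-49699261, plus strand) and 140 before it in *Tctn3* (chr19:40612344-40612386, minus strand). In *Tctn1* the match began 36 bases after it (chr5:122264411-122264439, minus strand). The window of *Kif3a* held only a single arm, 98 bases before the start site, in capitals in the last line (stretch shown: chr11:53567256-53567291, plus strand).
Bbs7: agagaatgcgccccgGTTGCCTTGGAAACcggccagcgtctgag
Ift57: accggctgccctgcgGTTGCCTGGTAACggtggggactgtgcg
Tctn3: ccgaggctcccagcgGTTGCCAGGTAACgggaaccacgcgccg
Tctn1: cgctaggctgtgactGTTGCCCGGGCAAC
Kif3a: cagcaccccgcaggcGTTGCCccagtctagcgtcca

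None of the 43 members passed the test between control and mutant NP tissues (limma, adjusted p under 0.05), while 112 of the 12462 genes tested did (0.899%). With so low a share over all genes, a count of 0 among the members does not set them apart and does not show that their levels are equal. At an unadjusted p under 0.05, limma took 1 member as higher in the mutants, *Ift22*, and 1 as lower, *Bbs1*, beside 5.42% and 4.12% of all genes. On the reads recovered from the CPM values, edgeR called 0 members (1.31% of all genes) and limma-voom 0 (1.24%), each of the 42 they tested, which left out *Tctn1*, and DESeq2 called 0 (0.365%) of the 42 to which it gave an adjusted p, again without *Tctn1*. At an unadjusted p under 0.05, edgeR and limma-voom each took *Ift22* as higher (4.72% and 4.95% of all genes) and *Bbs1* as lower (5.31% and 5.23%), and DESeq2 took 0 of 43 members (0.958% of all genes as higher and 1.69% as lower). The p-values measure only the spread between these samples, since nothing states that the replicates are separate embryos.

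Fold changes of the members were spread around 0. On the log2(CPM + 1) scale 19 members were higher and 24 lower in the mutants, with a median of −0.063 beside a median of 0.029 over all genes tested. With TMM or RLE scaling, 16 were higher and 27 lower. The range ran from −0.79 for *Bbs1* to 0.86 for *Ift22*, and 40 of the 43 members (93.02%) lay under 0.5 in absolute value, beside 84.2% of all genes. All 95% confidence intervals other than those of *Bbs1*, *Ift140*, *Ift22*, *Tctn1* and *Tctn2* stayed within 1 in either direction, which makes 38 of 43 (88.4%), beside 68.1% of all genes. Within 0.5 in either direction stayed 10 of 43 (23.3%), beside 23.2% of all genes. A change of 1 was thus outside the interval for most members, whereas a change of 0.5 in 1 direction or the other lay inside it for most. In bulk tissue, fewer cells of a type and less RNA per cell cannot be told apart.

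Groups did not overlap in 8 members with higher values in both mutant libraries (21.9% of all genes) and in 12 members with lower values in both (16.8% of all genes). The remaining 23 members overlapped. Summed over the 43 members, the level was 1716 and 1681 CPM in the control libraries and 1646 and 1708 CPM in the mutant libraries. The sums of the groups therefore overlapped, as they also did with the other form of 1 *Kif3a* value described below, with which control replicate 2 held 1641 CPM.

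**Figure D2:**
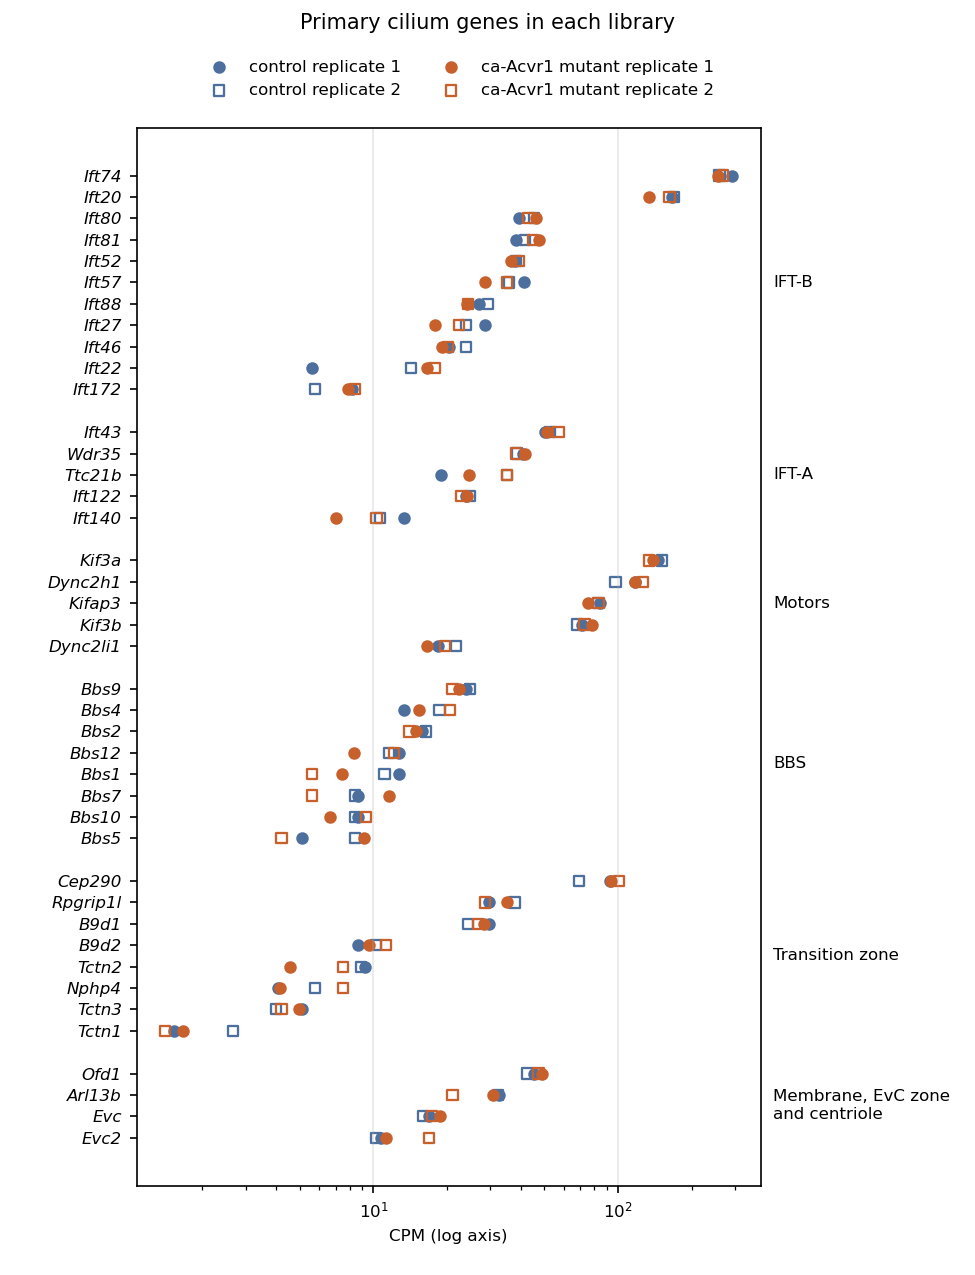
Level of 41 of the 43 primary cilium genes in each library, in CPM on a log axis, by role and in order of the mean; circles are replicate 1, squares replicate 2, blue control and orange ca-Acvr1 mutant. The 4 libraries lie close together for most genes, and *Ift22* has its lowest value, 5.62 CPM, in control replicate 1.

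**Figure D3:**
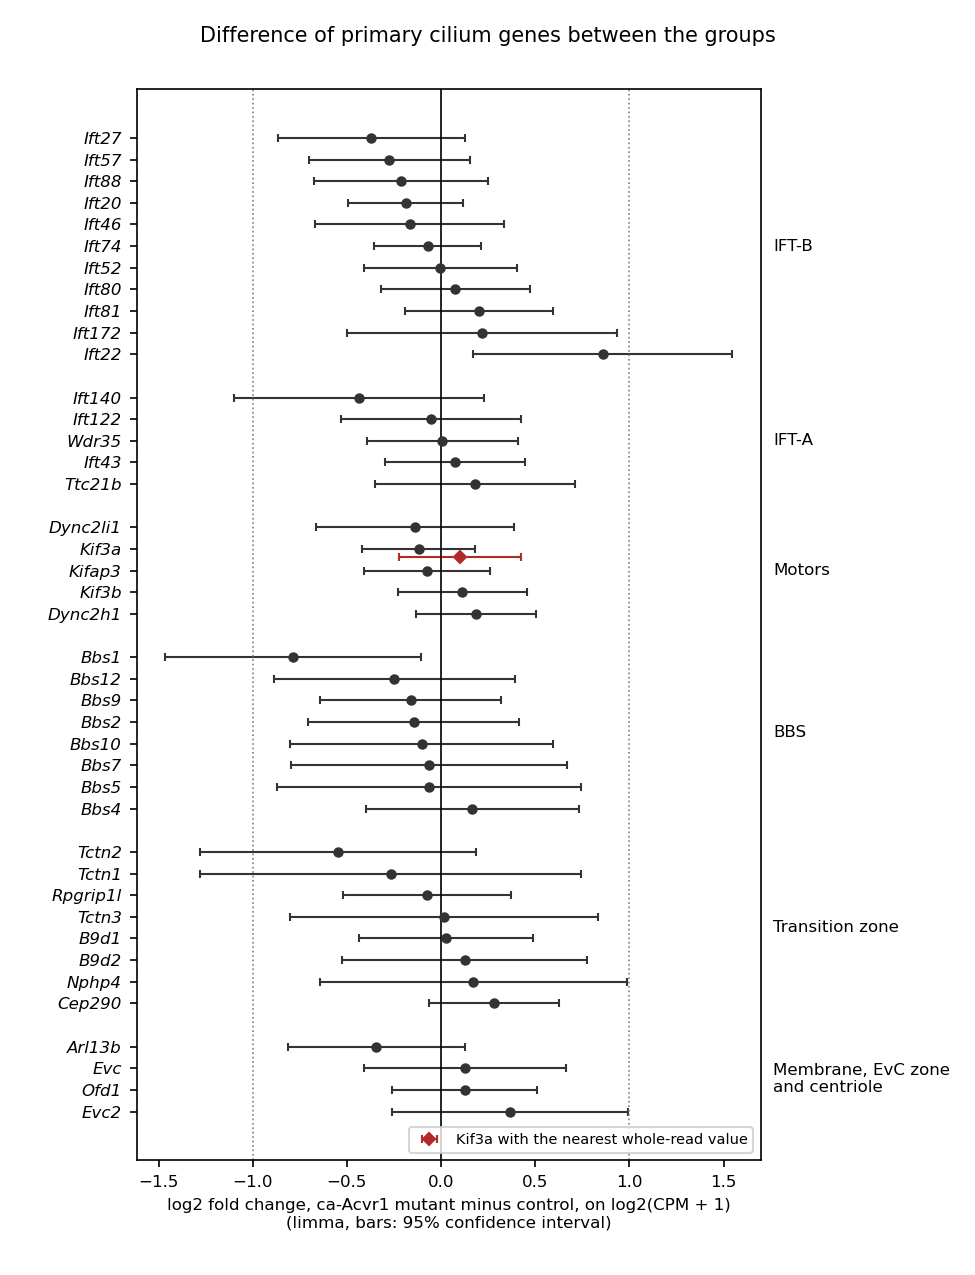
Difference between the mutant and control libraries for 41 of the 43 genes, as a log2 fold change on the log2(CPM + 1) scale with its 95% confidence interval from limma; dotted lines mark a change of 1. The intervals of *Ift22* and *Bbs1* alone leave out 0 before adjustment. *Kif3a* is drawn as deposited (black) and with the nearest whole-read value of the same decimals, 40 CPM lower in control replicate 2 (red).

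IFT-B proteins form the larger of the IFT complexes and are needed for the outward movement of trains. Of 11 IFT-B genes, 4 were higher and 7 lower in the mutants, with a median log2 fold change of −0.071 on the log2(CPM + 1) scale (−0.023 without control replicate 1 and −0.039, with 5 higher and 6 lower, without mutant replicate 1), and 0 passed limma's test. *Ift22*, which encodes a small GTPase-like subunit, was at 5.62 and 14.2 CPM in controls and 16.6 and 17.8 CPM in mutants. These values rest on 11 and 32 reads in the controls and 40 and 38 reads in the mutants. The 2 control libraries stood further apart than control replicate 2 did from the mutants, although the groups did not overlap. On these values the log2 fold change was 0.86 on the log2(CPM + 1) scale (SE 0.33, 95% confidence interval 0.17 to 1.54, adjusted p = 0.361 by limma). Control replicate 1 decided this value. Without control replicate 2 the log2 fold change of *Ift22* was 1.46 and passed limma's test (adjusted p = 0.014), the single member called among 0.913% of all genes. Without control replicate 1 it was 0.26, and the adjusted p ranged from 0.014 to 0.812 over the 4 limma fits that left out 1 library.

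*Ift74* encodes a core subunit that binds tubulin together with IFT81. *Ift74* was at 293 and 260.1 CPM in the 2 controls, against 257 and 269 CPM in the 2 mutants. *Ift81* was at 38.3 and 41.7 CPM in controls and 47.3 and 44.9 CPM in mutants. The groups overlapped for *Ift74* and not for *Ift81*, and neither gene passed the test. Their log2 fold changes on the log2(CPM + 1) scale were −0.071 (SE 0.14) for *Ift74* and 0.20 (SE 0.19) for *Ift81*. The interval of *Ift74*, from −0.35 to 0.21, was among the narrowest of the members, and its value turned to 0.014 without control replicate 1.

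*Ift20*, whose product also works at the Golgi in sorting cargo for the cilium, was at 165.6 and 170.0 CPM in the 2 controls, against 133 and 162 CPM in the 2 mutants. *Ift88*, the gene mutated in the Oak Ridge polycystic kidney mouse, was at 27.1 and 29.3 CPM in controls and 24.1 and 24.3 CPM in mutants. *Ift57* was at 41.4 and 35.96 CPM in the 2 controls, against 28.6 and 35.1 CPM in the 2 mutants. In each of these genes both mutant libraries lay below both control libraries, by amounts that did not pass the test. *Ift27*, which encodes a small GTPase needed for the exit of the BBSome from cilia, was at 28.6 and 23.97 CPM in controls and 17.9 and 22.5 CPM in mutants. *Ift46* was at 20.4 and 23.97 CPM in the 2 controls, against 19.1 and 20.1 CPM in the 2 mutants. In these 2 genes, too, both mutant libraries lay below both controls. For *Ift27* the log2 fold change was −0.37 on the log2(CPM + 1) scale (SE 0.24, 95% confidence interval −0.87 to 0.12, adjusted p = 0.692 by limma), and those of *Ift57*, *Ift88*, *Ift20* and *Ift46* ran from −0.28 to −0.17. Without mutant replicate 1 the value of *Ift27* was −0.21.

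Values of the other IFT-B genes crossed between the groups. *Ift52* was at 37.8 and 38.2 CPM in controls and 36.5 and 39.3 CPM in mutants. *Ift80*, mutated in a human form of asphyxiating thoracic dystrophy, was at 39.3 and 45.3 CPM in the 2 controls, against 46.1 and 43.1 CPM in the 2 mutants. *Ift172* was at 8.18 and 5.77 CPM in controls and 7.89 and 8.42 CPM in mutants, on 13 to 19 reads a library. The groups overlapped in all 3 genes, with log2 fold changes on the log2(CPM + 1) scale of −0.0038 for *Ift52*, 0.076 for *Ift80* and 0.22 (SE 0.35) for *Ift172*. Summed over the 11 genes, IFT-B stood at 705 and 689 CPM in the 2 controls, against 634 and 686 CPM in the 2 mutants, with mutant replicate 1 the lowest of the 4 libraries.

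IFT-A proteins serve the return of trains to the cell body and the entry of membrane receptors. Of 5 IFT-A genes, 3 were higher and 2 lower, with a median of 0.0062 on the log2(CPM + 1) scale, and 0 passed limma's test. With TMM or RLE scaling, and by edgeR, limma-voom and DESeq2, 2 were higher and 3 lower, and the same split was found without any 1 of the 4 libraries, with medians of −0.078 and −0.030 without control replicates 1 and 2 and −0.049 and −0.020 without mutant replicates 1 and 2. *Ift43* was at 50.1 and 52.8 CPM in controls and 51.5 and 57.1 CPM in mutants. *Wdr35*, which encodes IFT121, was at 40.9 and 38.6 CPM in the 2 controls, against 41.5 and 38.4 CPM in the 2 mutants. *Ift122* was at 24.02 and 24.9 CPM in controls and 24.1 and 22.9 CPM in mutants. These 3 genes overlapped between the groups, and the replicates of each lay close together. *Ttc21b*, which encodes IFT139, was at 18.9 and 35.1 CPM in the 2 controls, against 24.5 and 35.1 CPM in the 2 mutants. Here replicate 1 was the lower library in both groups. Its log2 fold change was 0.18 on the log2(CPM + 1) scale (SE 0.26, adjusted p = 0.903 by limma), and it took the opposite sign without control replicate 1 (−0.25) or mutant replicate 2 (−0.072). *Ift140* was at 13.3 and 10.7 CPM in controls and 7.06 and 10.3 CPM in mutants. Its groups did not overlap, but control replicate 2 and mutant replicate 2 differed by only a few reads, 24 against 22. For *Ift140* the log2 fold change was −0.44 on the log2(CPM + 1) scale (SE 0.32, 95% confidence interval −1.10 to 0.23, adjusted p = 0.742 by limma). It was −0.19 without mutant replicate 1, −0.29 without control replicate 1 and −0.68 without mutant replicate 2.

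The motors were represented by 5 genes, of which 2 were higher and 3 lower and 0 passed limma's test. *Kif3a* encodes a motor subunit of heterotrimeric kinesin-2, and its loss abolishes cilia. *Kif3a* was deposited at 146 and 151 CPM in the 2 controls, against 139 and 134 CPM in the 2 mutants. The mutant libraries lay below the control libraries by these values. This gave a log2 fold change of −0.12 on the log2(CPM + 1) scale (SE 0.15, 95% confidence interval −0.42 to 0.18, adjusted p = 0.871 by limma).

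The value of *Kif3a* in control replicate 2 was not a whole number of reads. Of the 172 values of the members, 171 were whole numbers of reads within a tolerance of 0.02 reads, and the value of 151 CPM for *Kif3a* was the exception, at 340.1 reads. Its 3 other values corresponded to 285, 334 and 287 reads. Over all genes, 43 of 54308 values, in 22 genes, were not whole, and 99.92% were. The nearest whole-read value with the same decimals lay exactly 40 CPM lower, at 111 CPM or 250 reads, and the next one 154 CPM higher. How the value arose was not tested. With 111 CPM in its place, the control libraries were at 146 and 111 CPM and the mutant libraries, at 139 and 134 CPM, lay between them. The log2 fold change of *Kif3a* then turned to 0.10 on the log2(CPM + 1) scale (SE 0.16, 95% confidence interval −0.22 to 0.42, adjusted p = 0.912 by limma). In the other fits, in which that value stayed as deposited, was rounded to 340 reads or was left out with its library, the sign of *Kif3a* was negative, with adjusted p from 0.796 to 0.9998 in limma, edgeR, limma-voom and DESeq2. The sign for *Kif3a* thus depended on the form of 1 value, and in neither form did the difference pass the test.

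**Figure D4:**
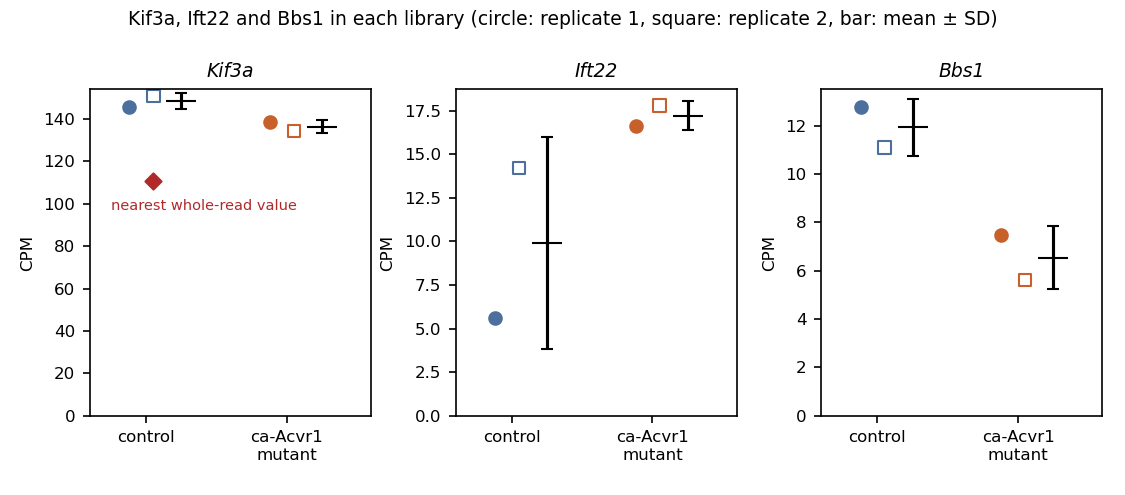
Levels of *Kif3a*, *Ift22* and *Bbs1* in CPM in each library, with the mean and SD of each group beside the points (n = 2). For *Kif3a* the red diamond marks the nearest whole-read value with the same decimals in control replicate 2. It is at 111 CPM, below both mutant libraries, in place of the deposited 151 CPM above them.

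*Kif3b* and *Kifap3* encode the partners of KIF3A, the other motor subunit and the cargo-binding subunit. *Kif3b* was at 71.5 and 67.9 CPM in controls and 78.05 and 73.0 CPM in mutants. *Kifap3* was at 84.3 and 83.0 CPM in the 2 controls, against 75.6 and 83.3 CPM in the 2 mutants. Both mutant libraries exceeded both controls for *Kif3b*, whereas *Kifap3* overlapped. The log2 fold changes on the log2(CPM + 1) scale were 0.11 (SE 0.17) for *Kif3b* and −0.076 (SE 0.16) for *Kifap3*. The 3 subunits of kinesin-2 did not share a direction.

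Dynein 2 drives the return of trains. *Dync2h1*, its heavy chain, was at 117 and 97.7 CPM in controls and 117 and 126 CPM in mutants. *Dync2li1*, its light intermediate chain, was at 18.4 and 21.8 CPM in the 2 controls, against 16.6 and 19.7 CPM in the 2 mutants. For *Dync2h1*, control replicate 1 and mutant replicate 1 differed by less than 1 CPM and control replicate 2 was the low library. For *Dync2h1* the log2 fold change was 0.19 on the log2(CPM + 1) scale (SE 0.16, 95% confidence interval −0.13 to 0.51, adjusted p = 0.785 by limma), or 0.058 with control replicate 2 left out and 0.32 with control replicate 1 left out. The 5 motor genes together held 437 and 421 CPM in the control libraries and 426 and 437 CPM in the mutant libraries, and control replicate 2 held 381 CPM with the whole-read value of *Kif3a*. The median log2 fold change of the motors was −0.076 with the deposited value, 0.10 with the other and 0.019 with *Kif3a* left out. As deposited it stayed negative without any 1 library, at −0.0064 without mutant replicate 1 and −0.025 without control replicate 2.

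The BBSome is a coat-like complex that links membrane proteins to IFT trains for their removal from the cilium. Of 8 *Bbs* genes, 7 were lower and 1 higher in the mutants, with a median log2 fold change of −0.12 on the log2(CPM + 1) scale, and 0 passed limma's test. The same split was found with TMM and RLE scaling, whereas edgeR gave 6 lower and 2 higher. It was 8 and 0 without control replicate 1, 6 and 2 without control replicate 2 or mutant replicate 2, and 5 and 3 without mutant replicate 1, where the median was −0.20. *Bbs1*, which encodes the subunit bound by the GTPase ARL6, was at 12.8 and 11.1 CPM in controls and 7.47 and 5.62 CPM in mutants. These values correspond to 25 and 25 reads in the controls and 18 and 12 reads in the mutants. Both mutant libraries lay below both controls, by more than the spread within either group. For *Bbs1* the log2 fold change was −0.79 on the log2(CPM + 1) scale (SE 0.33, 95% confidence interval −1.47 to −0.11), which did not pass after adjustment over all genes (adjusted p = 0.424 by limma). It ranged from −0.96 to −0.61 when each library was left out in turn, with adjusted p from 0.471 to 0.992 by limma.

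The other BBSome genes differed by less. *Bbs9* was at 24.02 and 24.9 CPM in the 2 controls, against 22.4 and 21.1 CPM in the 2 mutants. *Bbs2* was at 15.8 and 16.4 CPM in controls and 14.9 and 14.04 CPM in mutants. *Bbs4* was at 13.3 and 18.6 CPM in the 2 controls, against 15.4 and 20.6 CPM in the 2 mutants. The mutants lay slightly below the controls for *Bbs9* and *Bbs2*, and *Bbs4*, the 1 higher gene, overlapped. The log2 fold changes on the log2(CPM + 1) scale were −0.16 (SE 0.24) for *Bbs9*, −0.15 (SE 0.27) for *Bbs2* and 0.17 (SE 0.28) for *Bbs4*, which turned to −0.064 without control replicate 1 and −0.034 without mutant replicate 2. *Bbs5* was at 5.11 and 8.43 CPM in controls and 9.13 and 4.21 CPM in mutants. *Bbs7* was at 8.69 and 8.43 CPM in the 2 controls, against 11.6 and 5.62 CPM in the 2 mutants. The mutant libraries enclosed the control libraries in both genes. *Bbs10* and *Bbs12* encode chaperonin-like proteins that help to assemble the BBSome. *Bbs10* was at 8.69 and 8.43 CPM in controls and 6.64 and 9.36 CPM in mutants. *Bbs12* was at 12.8 and 11.54 CPM in the 2 controls, against 8.30 and 12.2 CPM in the 2 mutants. Both overlapped between the groups. Summed over the 8 genes, the level was 101 and 108 CPM in the control libraries and 95.9 and 92.7 CPM in the mutant libraries, so that both mutant sums lay below both control sums. Without *Bbs1* the sums were 88.41 and 96.78 CPM in controls and 88.42 and 87.04 CPM in mutants, and the groups overlapped.

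The transition zone was represented by 10 genes, of which 6 were higher and 4 lower and 0 passed limma's test. Their median log2 fold change was 0.021 on the log2(CPM + 1) scale, and with TMM or RLE scaling or by DESeq2 4 were higher and 6 lower. The median was −0.0077 without control replicate 1, with 5 higher and 5 lower, and −0.013 without mutant replicate 1, with 4 higher and 6 lower. Without control replicate 2 it was 0.036 (5 and 5) and without mutant replicate 2 it was 0.042 (6 and 4). *Cep290* encodes a large protein that ties the membrane to the microtubules. *Cep290* was at 92.5 and 69.3 CPM in controls and 93.8 and 101 CPM in mutants. Control replicate 2 was low, and control replicate 1 lay close to mutant replicate 1. On these values the log2 fold change was 0.28 on the log2(CPM + 1) scale (SE 0.17, 95% confidence interval −0.066 to 0.63, adjusted p = 0.657 by limma), and from 0.073 without control replicate 2 to 0.49 without control replicate 1.

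The *Tctn* genes encode tectonic proteins of the transition zone membrane, and the B9 proteins belong to the same complex. *Tctn2* was at 9.20 and 8.88 CPM in the 2 controls, against 4.57 and 7.49 CPM in the 2 mutants. *Tctn1* was at 1.53 and 2.66 CPM in controls and 1.66 and 1.40 CPM in mutants. *Tctn3* was at 5.11 and 3.995 CPM in the 2 controls, against 4.98 and 4.21 CPM in the 2 mutants. Only *Tctn2* of these 3 had groups apart, on 18 and 20 reads against 11 and 16, and *Tctn1* rested on 3 to 6 reads a library, too few to read a direction. The log2 fold change of *Tctn2* was −0.55 on the log2(CPM + 1) scale (SE 0.36, 95% confidence interval −1.28 to 0.19, adjusted p = 0.694 by limma), −0.24 without mutant replicate 1 and −0.85 without mutant replicate 2. *B9d1* was at 29.6 and 24.4 CPM in controls and 28.2 and 26.7 CPM in mutants. *B9d2* was at 8.69 and 10.2 CPM in the 2 controls, against 9.55 and 11.2 CPM in the 2 mutants. Both B9 genes overlapped between the groups.

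NPHP4 and RPGRIP1L belong to a further module of the transition zone. *Rpgrip1l* was at 29.6 and 37.7 CPM in the 2 controls, against 35.3 and 28.5 CPM in the 2 mutants. *Nphp4* was at 4.09 and 5.77 CPM in the 2 controls, against 4.15 and 7.49 CPM in the 2 mutants. Both genes overlapped between the groups. The log2 fold changes on the log2(CPM + 1) scale were −0.073 (SE 0.22) for *Rpgrip1l* and 0.17 (SE 0.40) for *Nphp4*.

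The last 4 genes act in the ciliary membrane, in the EvC zone just above the transition zone and at the centriole. *Arl13b* encodes a small GTPase of the ciliary membrane. *Arl13b* was at 32.7 and 32.4 CPM in controls and 30.7 and 21.1 CPM in mutants. The difference lay mostly in mutant replicate 2. This gave a log2 fold change of −0.34 on the log2(CPM + 1) scale (SE 0.23, 95% confidence interval −0.81 to 0.13, adjusted p = 0.702 by limma), and it was −0.081 with mutant replicate 2 left out and −0.61 with mutant replicate 1 left out. *Evc* and *Evc2* encode partners in a complex that passes on the signal from Smoothened. *Evc* was at 16.9 and 15.98 CPM in the 2 controls, against 18.7 and 17.3 CPM in the 2 mutants. *Evc2* was at 10.7 and 10.2 CPM in controls and 11.2 and 16.8 CPM in mutants. Both genes had groups apart and higher mutant values, *Evc2* mainly in mutant replicate 2. The log2 fold changes on the log2(CPM + 1) scale were 0.12 (SE 0.26) for *Evc* and 0.36 (SE 0.30, adjusted p = 0.787 by limma) for *Evc2*, which was at 0.090 without mutant replicate 2 and 0.64 without mutant replicate 1. *Ofd1*, on the X chromosome, encodes a centriolar satellite and distal centriole protein and was at 45.5 and 42.6 CPM in the 2 controls, against 49.0 and 47.3 CPM in the 2 mutants. Its groups were apart by less than 2 CPM, with a log2 fold change of 0.13 on the log2(CPM + 1) scale (SE 0.19, adjusted p = 0.908 by limma), which was 0.080 without control replicate 2.

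Cilium genes outside the rule were set beside the members. Of 80 such genes on 6 lists, 74 were tested, and *Ttc30a2*, *Kif17*, *Fuz*, *Gpr161*, *Adcy3* and *Pkd1* were not analysed here. Limma called 0 of the 74, beside 0.899% of all genes, which again does not set them apart. edgeR, limma-voom and DESeq2 also called 0. At an unadjusted p under 0.05, limma took 1 as higher, *Rab3ip*, and 1 as lower, *Wdr19*, beside 5.42% and 4.12% of all genes. Without control replicate 1 limma called *Ahi1* higher, in the fit that also called the most genes over the whole table. Their median log2 fold change was 0.0072 on the log2(CPM + 1) scale, and it was negative with TMM and RLE scaling (−0.022 and −0.021), without control replicate 1 or 2 (−0.011 in each case) and without mutant replicate 1 (−0.0033). It was also negative with a mean above 5 CPM (−0.042, 66 genes), in edgeR (−0.067, 66 genes), limma-voom (−0.069, 66 genes) and DESeq2 (−0.028), so that its sign depended on the processing. *Wdr19*, which encodes the IFT-A subunit IFT144, was at 12.3 and 11.54 CPM in controls and 7.89 and 4.21 CPM in mutants. *Rab3ip*, which encodes an exchange factor for RAB8, was at 36.3 and 36.8 CPM in the 2 controls, against 46.9 and 50.1 CPM in the 2 mutants. Both had groups apart and did not pass after adjustment. The log2 fold changes on the log2(CPM + 1) scale were −0.92 for *Wdr19* (SE 0.35, adjusted p = 0.336 by limma) and 0.40 for *Rab3ip* (SE 0.19, adjusted p = 0.518 by limma). By list, the medians were −0.10 for 18 other transport genes, 0.036 for 16 other transition zone genes, −0.0062 for 8 genes of the ciliary membrane, 0.031 for 19 basal body genes, −0.086 for 7 RFX and motile factors and 0.091 for 6 genes of cilium disassembly. Signs of these medians often turned when 1 library was left out. Without control replicate 1, control replicate 2 and mutant replicate 2 in turn, the other transition zone genes were at −0.18, −0.12 and −0.057 and the genes of the ciliary membrane at 0.037, 0.083 and 0.0059. The RFX and motile factors turned to 0.11 without mutant replicate 2, and the genes of cilium disassembly to −0.0022 without mutant replicate 1. The other transition zone genes were also negative in edgeR (−0.0046) and DESeq2 (−0.012), and the basal body genes in DESeq2 (−0.0064). Other medians moved without a turn of sign. The other transport genes were at −0.011 without mutant replicate 2 (9 higher and 9 lower) and −0.060 without control replicate 2. The basal body genes were at 0.16 without control replicate 1, 0.0093 without control replicate 2 and 0.077 without mutant replicate 1. With TMM and RLE scaling they were at 0.0012 and 0.0022, and the other transition zone genes at 0.0065 and 0.0075. The genes of cilium disassembly were at 0.21 without mutant replicate 2 and 0.036 without control replicate 2. Without mutant replicate 1 the RFX and motile factors were at −0.15 and the genes of the ciliary membrane at −0.10.

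*Rfx3*, which encodes a main X-box factor, was at 57.2 and 40.0 CPM in controls and 54.8 and 37.0 CPM in mutants. *Foxj1*, which directs the formation of motile cilia, was at 6.64 and 7.10 CPM in the 2 controls, against 6.64 and 6.08 CPM in the 2 mutants. *Rfx3* was higher in replicate 1 of both groups and overlapped, and neither gene passed the test. Motile cilium markers were low, with a highest mean of 7.11 CPM for *Ccdc40*, and of 16 such genes 7 were tested, 4 were at a mean of 1 CPM or less and 5 were not analysed here. The 11 listed genes summed to 38.8 and 24.9 CPM in controls and 34.0 and 26.2 CPM in mutants, and 0 were called by limma, with 0 at an unadjusted p under 0.05.

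Genes of the Hedgehog pathway, both its transducers such as *Smo* and *Sufu* and its targets, were set beside the cilium genes because the pathway runs through the cilium. Of 9 such genes 8 were tested and 0 were called by limma, and edgeR, limma-voom and DESeq2 called 0. By limma *Gli3* was higher at an unadjusted p under 0.05, beside 5.42% of all genes. *Gli3* was deposited at 103 and 99.9 CPM in the 2 controls, against 128 and 132 CPM in the 2 mutants. *Gli1* was deposited at 2.56 and 2.66 CPM in controls and 4.25 and 2.87 CPM in mutants. *Ptch1* was deposited at 3.58 and 2.66 CPM in the 2 controls, against 4.49 and 3.94 CPM in the 2 mutants. Both mutant values of *Gli1*, *Gli2*, *Gli3* and *Ptch1* were not whole reads. *Gli2* was deposited at 42.9 and 47.9 CPM in controls and 56.1 and 60.5 CPM in mutants. Its nearest whole-read values with the same decimals lay exactly 10 CPM lower in both mutant libraries. With these the mutant libraries were at 46.1 and 50.5 CPM and the groups overlapped. In the same way the mutant libraries went to 108 and 91.7 CPM for *Gli3*, to 1.25 and 1.87 CPM for *Gli1* and to 2.49 and 0.936 CPM for *Ptch1*. The log2 fold changes on the log2(CPM + 1) scale then went from 0.35 to −0.028 for *Gli3*, from 0.32 to −0.51 for *Gli1* and from 0.35 to −0.66 for *Ptch1*, while *Gli2* kept its direction (0.35 and 0.087), and the median of the 8 genes went from 0.33 to −0.15. As deposited, that median was 0.19 without mutant replicate 1, 0.17 with a pseudocount of 5, and 0.086 in edgeR and 0.11 in limma-voom, which tested 6 of the genes. None of these 4 genes passed limma's test in either form. With the whole-read values *Gli1* rested on 5 and 6 reads in controls and 3 and 4 reads in mutants (SE 0.48). *Ptch1* rested on 7 and 6 reads in controls and 6 and 2 reads in mutants (SE 0.48). Such numbers are too low to read a direction for *Gli1* or *Ptch1*.

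Markers of several cell types in the tissue differed between the groups by more than the cilium genes did. The marker lists, like the members, were chosen with earlier results of these data known. Of 12 markers of mesenchyme from cranial neural crest, 10 were called lower by limma and 0 higher, with a median log2 fold change of −1.04 on the log2(CPM + 1) scale. Summed, they stood at 1872 and 2361 CPM in controls and 994 and 1048 CPM in mutants, with *Col1a2* as the most abundant. *Col1a2* was at 540.2 and 617 CPM in the 2 controls, against 246 and 240.1 CPM in the 2 mutants. edgeR and limma-voom also called 10 and DESeq2 called 6, while limma called 10 with the nearest whole-read values and 7 without control replicate 2. Of 9 epithelial markers 2 were called higher, *Epcam* and *Cdh1*, and the list summed to 242 and 222 CPM in controls and 375 and 337 CPM in mutants, with *Cdh1* as the most abundant. edgeR and limma-voom called both and DESeq2 neither. Of the 2, limma called 0 without mutant replicate 1, *Cdh1* without mutant replicate 2 and *Epcam* without control replicate 2, while without control replicate 1 it called both and *Krt18*. Of 8 neural markers 0 were called and 6 had an unadjusted p under 0.05 by limma, all higher, beside 5.42% of all genes. The neural list summed to 1276 and 1219 CPM in the 2 controls, against 1641 and 1714 CPM in the 2 mutants, with *Sox2* as the most abundant. Limma called markers such as *Sox2* and *Sox1* higher without control replicate 1, and *Sox2* with the replicate block.

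Of 7 macrophage markers tested, *Cx3cr1* and *Mrc1* were called higher by limma, and the list summed to 44.5 and 43.9 CPM in controls and 78.05 and 108 CPM in mutants. Without mutant replicate 2 limma called neither, without control replicate 1 or mutant replicate 1, with a mean above 5 CPM or with a pseudocount of 0.1 *Cx3cr1* alone, and without control replicate 2 both and *C1qb*. Of the 2 edgeR called both, limma-voom *Cx3cr1* alone and DESeq2 neither. Schwann precursor markers summed to 20.4 and 22.6 CPM in the 2 controls, against 11.6 and 8.42 CPM in the 2 mutants. Of 3 tested, limma called 0 and took 2 as lower at an unadjusted p under 0.05, beside 4.12% of all genes. Limma called *Foxd3* lower without control replicate 1, and *Sox10* and *Foxd3* with the replicate block. Endothelial, erythroid and muscle markers gave 0 calls by limma and 0 at an unadjusted p under 0.05, but without control replicate 1 the erythroid marker *Hbb-bh1* was called lower. The 9 proliferation genes gave 0 calls and 0 at an unadjusted p under 0.05 by limma, with a median log2 fold change of −0.092 on the log2(CPM + 1) scale. For the neural, endothelial, erythroid and proliferation lists, edgeR, limma-voom and DESeq2 also called 0 of the genes they tested. edgeR and limma-voom tested 0 muscle markers and only 2 motile cilium and 2 Schwann precursor markers, so that their calls say little of these lists. Relative to its level, the members' sum, from 1646 to 1716 CPM over the 4 libraries, varied less than the marker sums given here, but it adds genes that go both ways. The part of the marker shifts in the values of single cilium genes was not tested.

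**Figure D5:**
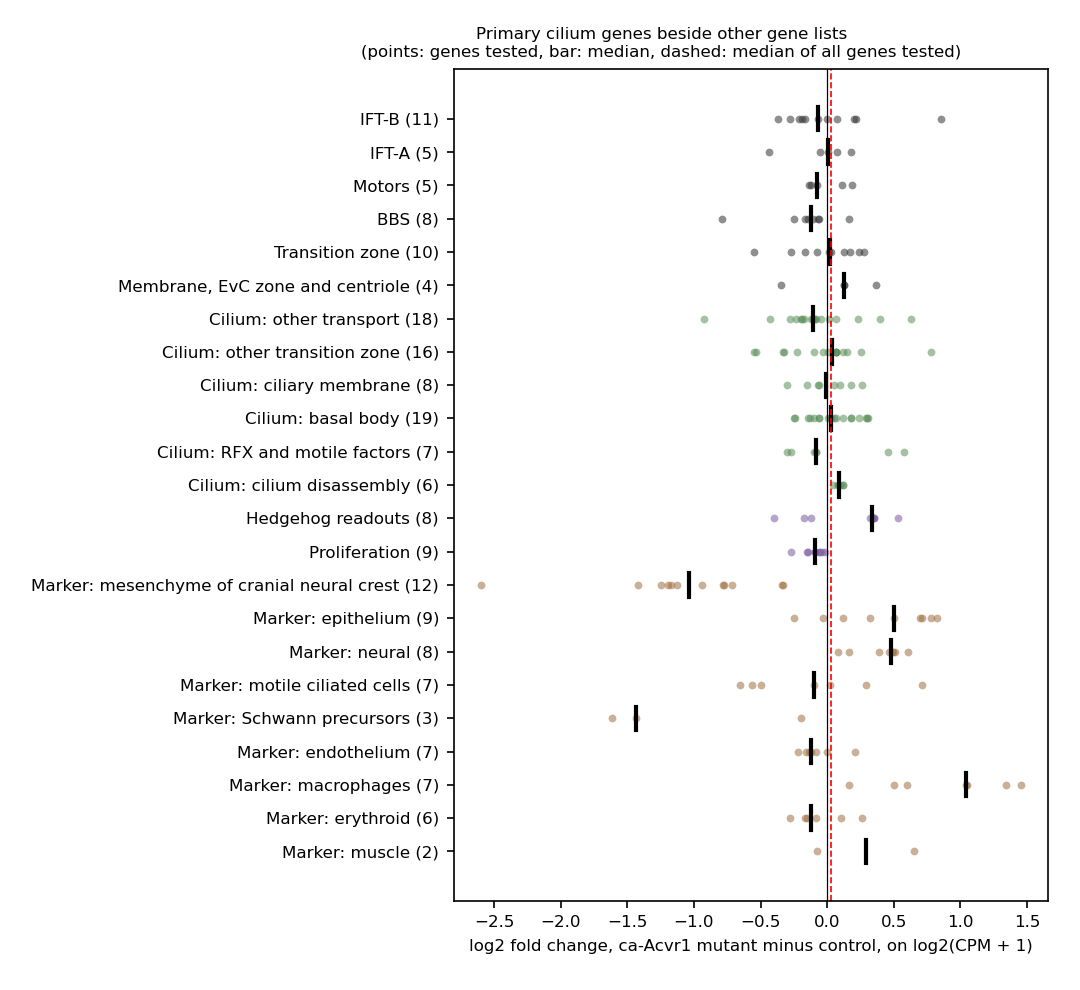
Log2 fold change between mutant and control libraries on the log2(CPM + 1) scale for the primary cilium genes by role, for other cilium genes, and for the Hedgehog, proliferation and marker lists, all from the deposited values; each point is a gene tested, the bar is the median of its list and the number tested is in parentheses. Medians of the cilium lists lie between −0.12 and 0.12, that of the mesenchyme markers is −1.04 and that of the epithelial markers 0.50.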

How the data were processed

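The authors made the libraries with a QuantSeq 3′ kit, and their processing notes name STAR, featureCounts 1.6.4, DESeq2 and mm10. The deposited table holds CPM values, which the authors had scaled to the library totals. Library totals were derived from the step between values within a library, and whole reads were recovered for 99.92% of the values (tolerance 0.02 reads). Any other value was set beside the closest whole-read value of identical decimals, up to 500 CPM away. limma 3.58.1 (R 4.3.3) was fitted to log2(CPM + 1) of all genes with a mean above 1 CPM, with trend = TRUE and with Benjamini-Hochberg adjustment over all genes tested at 0.05. edgeR 4.0.16, DESeq2 1.42.0 and limma-voom were run on the recovered reads, TMM being applied in edgeR. The tests were also run on simulated reads, on which no result reported here rests. The genes named were *Kif3a*, members with an unadjusted p under 0.05, members with a value that was not whole, and, for each role, the member with the highest mean and those with the smallest p in each direction. Values of other members were added after they had been seen, and 2 members, which enter the counts and medians, are not reported here singly. Members and lists were chosen with earlier results of these data known. Alternatives of limma were no filter, a mean above 5 CPM, pseudocounts of 0.1 and 5, TMM and RLE scaling, the replicate block and each library left out. Values that were not whole were also replaced by whole-read values, or their genes were left out. Across genes, the correlation between replicates was r = 0.976 for control and 0.978 for mutant libraries. All 4 libraries entered the main test. Python 3.11.15, numpy 2.4.6, pandas 2.3.3 and matplotlib 3.10.9 were used.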

Additional observations from a re-analysis of the deposited data

How the results depend on the processing

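*Kif3a* changed direction under 1 of the alternatives: with the nearest whole-read value of control replicate 2, its log2 fold change on the log2(CPM + 1) scale was 0.10, against −0.12 as deposited. The substitution of that value is the change. With each library left out in turn it ranged from −0.14 to −0.093. Of the 43 members, limma called from 0 to 1 when each library was left out (*Ift22* without control replicate 2), and 0 under every other alternative. Other cilium genes gave from 0 to 1 calls when each library was left out (*Ahi1* without control replicate 1) and otherwise 0. The members' median ranged from −0.065 to −0.014 when each library was left out. Over all genes, limma called 112, DESeq2 called 39, and from 93 to 465 were called when each library was left out, most of them without control replicate 1; the cause was not tested. With the replicate block limma called 229 genes and 0 members. The labels do not say whether the replicate numbers pair the samples. Deviations of samples with the same number correlated with r = 0.067 across genes. With 2 libraries a group, this correlation cannot decide whether a pairing exists.

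For the 15 other named members, 234 of 240 values over 16 alternatives kept their direction and their side of the threshold. With each library left out in turn, *Bbs4* ranged from −0.064 to 0.40, *Ttc21b* from −0.25 to 0.61 and *Ift74* from −0.16 to 0.014. All 3 changed sign without control replicate 1, and *Bbs4* (−0.034) and *Ttc21b* (−0.072) also without mutant replicate 2, so that leaving out 1 library was enough to reverse each of these directions. In fits that left out a library, the lone library of a group was assumed to vary like the others. Low depth limits the members with few reads most, and with 2 libraries a group the intervals cover only the spread seen here.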
